A study of Mus musculus with 44 samples.

Results

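The 10 genes described here are long noncoding RNAs (lncRNAs) chosen by name: Malat1, Neat1, Meg3, Rian, Mirg, Miat, Snhg11, Pvt1, Kcnq1ot1 and Gas5. They are 10 of the 54446 genes in the count table, and all 10 were found by their symbols in the mouse annotation of the build GRCm38. RNA was sequenced from the brain and the liver of male C57BL/6 mice after removal of ribosomal RNA, so that transcripts without a poly(A) tail could also be counted. The brain at 12 months of age came from mice on the control diet (CD, n = 5) or on the ketogenic diet (KD, n = 7) for one week. The brain at 26 months came from mice on CD (n = 8) or on the cyclic KD, which alternates KD and CD by the week, for about one year (n = 8). The liver at 26 months was taken from the same kinds of groups, on CD (n = 8) or on the one-year cyclic KD (n = 8). The labels name no transgene or deletion in any group. All tissues at 26 months were collected in a week of CD feeding, so the one-year comparison is of mice that were all eating CD at the end.

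An lncRNA is a long transcript that is not read into a long protein. Malat1 and Neat1 are neighbouring nuclear RNAs: Malat1 is held in nuclear speckles, which store splicing factors, and Neat1 is the scaffold of paraspeckles, bodies that hold RNA-binding proteins and edited RNAs. Meg3, Rian and Mirg are made from the maternal copy of the imprinted Dlk1-Dio3 region. Rian carries small nucleolar RNAs (snoRNAs) and microRNAs within its gene, and Mirg carries microRNAs. Kcnq1ot1 is made from the paternal copy of another imprinted region, runs antisense through Kcnq1 and silences neighbouring genes on that copy. Miat is a nuclear RNA of neurons and other cells that binds splicing factors. Gas5 and Snhg11 are host genes of snoRNAs, and Gas5 is known to be degraded by nonsense-mediated decay when ribosomes are active. Pvt1 lies next to Myc.

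In GRCm38, Malat1 lies on the minus strand at chr19:5795690-5802672 and Neat1 on the same strand at chr19:5824708-5845478. Meg3 (chr12:109541001-109571726), Rian (chr12:109603940-109661716) and Mirg (chr12:109729764-109749460) follow each other on the plus strand. Miat lies on the minus strand at chr5:112213228-112229395, where its exons share 2260 bases with the antisense gene Gm26953, which had at most 21 counts in a library. Snhg11 lies on the plus strand at chr2:158375638-158386145 and is annotated as protein coding, although it is known as a noncoding host gene. Pvt1 spans chr15:62037986-62378096 and Gas5 chr1:161034422-161038539, both on the plus strand. Exons of Pvt1 share 109 bases with the antisense pseudogene H2afy3, which had at most 85 counts in a library. The antisense gene Zbtb37 overlaps the start of Gas5 with 0 shared exon bases and had at most 1127 counts in a library. Kcnq1ot1 is a single exon of 93092 bases on the minus strand at chr7:143203458-143296549. Of this exon, 121 bases overlap exons of Kcnq1, which had at most 115 counts in a library. The strand setting of the counting is not given in the sources used here, so reads of a gene and of its antisense partner, including unspliced Kcnq1 RNA, cannot be told apart.

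RefSeq promoters of GRCm38.p6, from 250 bases before to 50 bases after the start, were at hand for 8 of the 10 genes. Those of 3 genes are shown, picked by the results of the genes. Meg3 was far lower in the liver than in the brain, Kcnq1ot1 was lower in the brain at 26 months, and Gas5 did not pass the main test between the tissues. No link between a motif and a level was tested. Capitals mark 4 motifs, searched on both strands and free to overlap. The cAMP response element was searched as TGACGTCA, the sequence bound by CREB. The second motif was TATAAA, called the TATA box, placed before many regulated starts. The CCAAT box was searched by the letters of its name. The GC box, bound by Sp1, was searched as GGGCGG. They are printed from 5′ to 3′ on the strand of the gene.
Meg3, chr12:109540746-109541045: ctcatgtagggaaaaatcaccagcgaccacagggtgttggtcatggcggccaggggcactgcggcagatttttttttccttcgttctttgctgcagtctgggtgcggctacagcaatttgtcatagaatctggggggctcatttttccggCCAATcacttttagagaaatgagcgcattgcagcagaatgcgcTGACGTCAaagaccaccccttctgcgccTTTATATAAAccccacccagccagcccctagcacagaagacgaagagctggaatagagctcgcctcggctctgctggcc
Kcnq1ot1, chr7:143296498-143296797: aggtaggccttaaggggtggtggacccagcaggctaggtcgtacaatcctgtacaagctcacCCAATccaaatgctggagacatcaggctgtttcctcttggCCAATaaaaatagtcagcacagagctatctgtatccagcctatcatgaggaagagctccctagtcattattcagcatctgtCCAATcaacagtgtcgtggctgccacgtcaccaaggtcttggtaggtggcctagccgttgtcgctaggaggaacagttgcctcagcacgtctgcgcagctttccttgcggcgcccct
Gas5, chr1:161034916-161035215: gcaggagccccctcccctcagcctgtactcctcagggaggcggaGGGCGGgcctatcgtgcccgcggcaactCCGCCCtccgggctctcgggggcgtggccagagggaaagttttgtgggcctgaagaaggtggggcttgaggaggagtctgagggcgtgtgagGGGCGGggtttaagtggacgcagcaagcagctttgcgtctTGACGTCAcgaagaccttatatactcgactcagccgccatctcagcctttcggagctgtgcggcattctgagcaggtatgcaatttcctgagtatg
The Meg3 promoter shown held 1 cAMP response element ending 49 bases before the start and 1 CCAAT box. It also held 2 overlapping matches of the TATA box, the last of which ends 19 bases before the start. Meg3 has a second RefSeq start downstream, whose promoter held none of the 4 motifs. That of Kcnq1ot1 held 3 CCAAT boxes and none of the other motifs. The Gas5 promoter held 1 cAMP response element ending 38 bases before the start and 3 GC boxes, and Gas5 has a second RefSeq start upstream with 5 GC boxes. Among the 32851 promoters of the table, 1.79% held the cAMP response element, 13.6% the TATA box, 37.4% the CCAAT box and 35.7% the GC box. The promoters of Malat1, Rian and Snhg11 held none of the 4 motifs. A match is a description of these letters only.

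Small RNAs made from the members were barely counted in these libraries, but the microRNAs show what Meg3, Rian and Mirg carry. RefSeq places 35 mature microRNAs from 19 genes inside the 3 lncRNAs on the same strand: 3 in Meg3, 6 in Rian and 26 in Mirg. Shown are 1 each of Meg3 and Rian and those of Mirg whose genes had the highest counts, with the seed (bases 2 to 8) in capitals.
miR-770-5p (Meg3), chr12:109563710-109563731: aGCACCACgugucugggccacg
miR-370-3p (Rian), chr12:109618305-109618326: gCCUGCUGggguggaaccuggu
miR-453 (Mirg), chr12:109735669-109735692: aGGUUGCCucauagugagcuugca
miR-496a-5p (Mirg), chr12:109739132-109739152: aGGUUGCCcaugguguguuca
miR-154-5p (Mirg), chr12:109738438-109738459: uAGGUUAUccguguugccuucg
The seeds of miR-453 and miR-496a-5p were the same, the only seed shared within the set, and the 35 sequences held 34 seeds. Of the 14 microRNA genes inside Mirg, 5 had no count in any library and the highest, Mir453, reached 35 counts in a library, with 678 counts over the 28 brains and 7 over the 16 livers. The microRNA genes inside Meg3 (2) and Rian (4), the 13 snoRNA genes inside Rian and the 10 inside Gas5 had no count in any library. Of the 2 snoRNA genes inside Snhg11, 1 (Gm25129) had up to 105 counts in a library. Many of these small RNA genes, all 10 of Gas5 among them, lie within annotated exons of their host. How reads shared with the host were counted is not known here. These counts come from libraries of long RNA and are no measure of the mature small RNAs.

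Total counts were 7447742 to 12744415 per brain and 6879726 to 12682087 per liver, and together the 10 genes took 0.936% to 1.14% of the counts of a brain and 0.94% to 1.64% of those of a liver. Markers matched the tissues: the summed level of 5 hepatocyte genes was 11658 to 34247 CPM (counts scaled to equal library size) in the livers and at most 670 in the brains, and that of 5 neuron genes was 2795 to 4928 in the brains and at most 31.8 in the livers. Some libraries stood apart. In 4 CD livers (replicates 3, 5, 6 and 7) mitochondrial genes took 1.68% to 1.91% of the counts against 2.61% to 4.12% in the other 12. Counts of the predicted gene Gm10800 made up 1.23% to 2.39% of the library in 6 livers (CD replicate 1 and KD replicates 10, 11, 14, 15 and 16) and at most 0.0058% in the other 10. In the brain its share was at most 0.0017% at 12 months and 0.0347% to 1.22% at 26 months, so its share and age cannot be told apart. The summed level of 13 hindbrain genes ranged from 1.32 to 331 CPM among the brains. The paper describes the samples as whole brain, and whether the part sampled varied was not tested.

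Levels are given in CPM scaled by TMM over all 44 libraries. To compare genes with each other, CPM was divided by the length of the exons in kb. In the brain the order per kb was Malat1 (911 CPM per kb), Snhg11 (199), Meg3 (25.1), Miat (18.7), Rian (14.4), Mirg (12.6), Neat1 (8.24), Kcnq1ot1 (7.43), Gas5 (5.83) and Pvt1 (2.21). Malat1, Snhg11 and the rest did not overlap in any brain, and Gas5 lay above Pvt1 in 28 of 28 libraries. From Meg3 to Gas5 the ranges of neighbours overlapped. Neat1 and Kcnq1ot1 were the closest of them, with Neat1 higher in 20 of 28 brains. In the liver the order was Malat1 (781 CPM per kb), Neat1 (355), Gas5 (7.43), Kcnq1ot1 (4.08), Pvt1 (3.36), Snhg11 (1.42), Mirg (0.257), Miat (0.0944), Meg3 (0.0645) and Rian (0.0327). Malat1 was above Neat1 in 15 of 16 livers, and both lay above all the others. Pvt1 and Snhg11, which follow each other, were in this order in 9 of 16 livers, and Miat and Meg3 in 7 of 16.

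The name of abundant lncRNAs held for part of the set only. In the brains of the 4 groups Malat1 ranked 11 or 12 per kb among 22070 genes and Snhg11 between 42 and 49, while Gas5 ranked between 7418 and 8277 and Pvt1 between 13614 and 14045. In the livers Malat1 ranked 42 (CD) and 50 (KD) and Neat1 104 and 89 among 17997 genes. Meg3, Rian and Miat, with 0 to 35 counts per liver, did not pass the filter on low counts there and have no rank. The rank of Kcnq1ot1 depends on its length: in CPM it was between 83 and 108 in the brain, and per kb between 6124 and 6808.

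**Figure D1:**
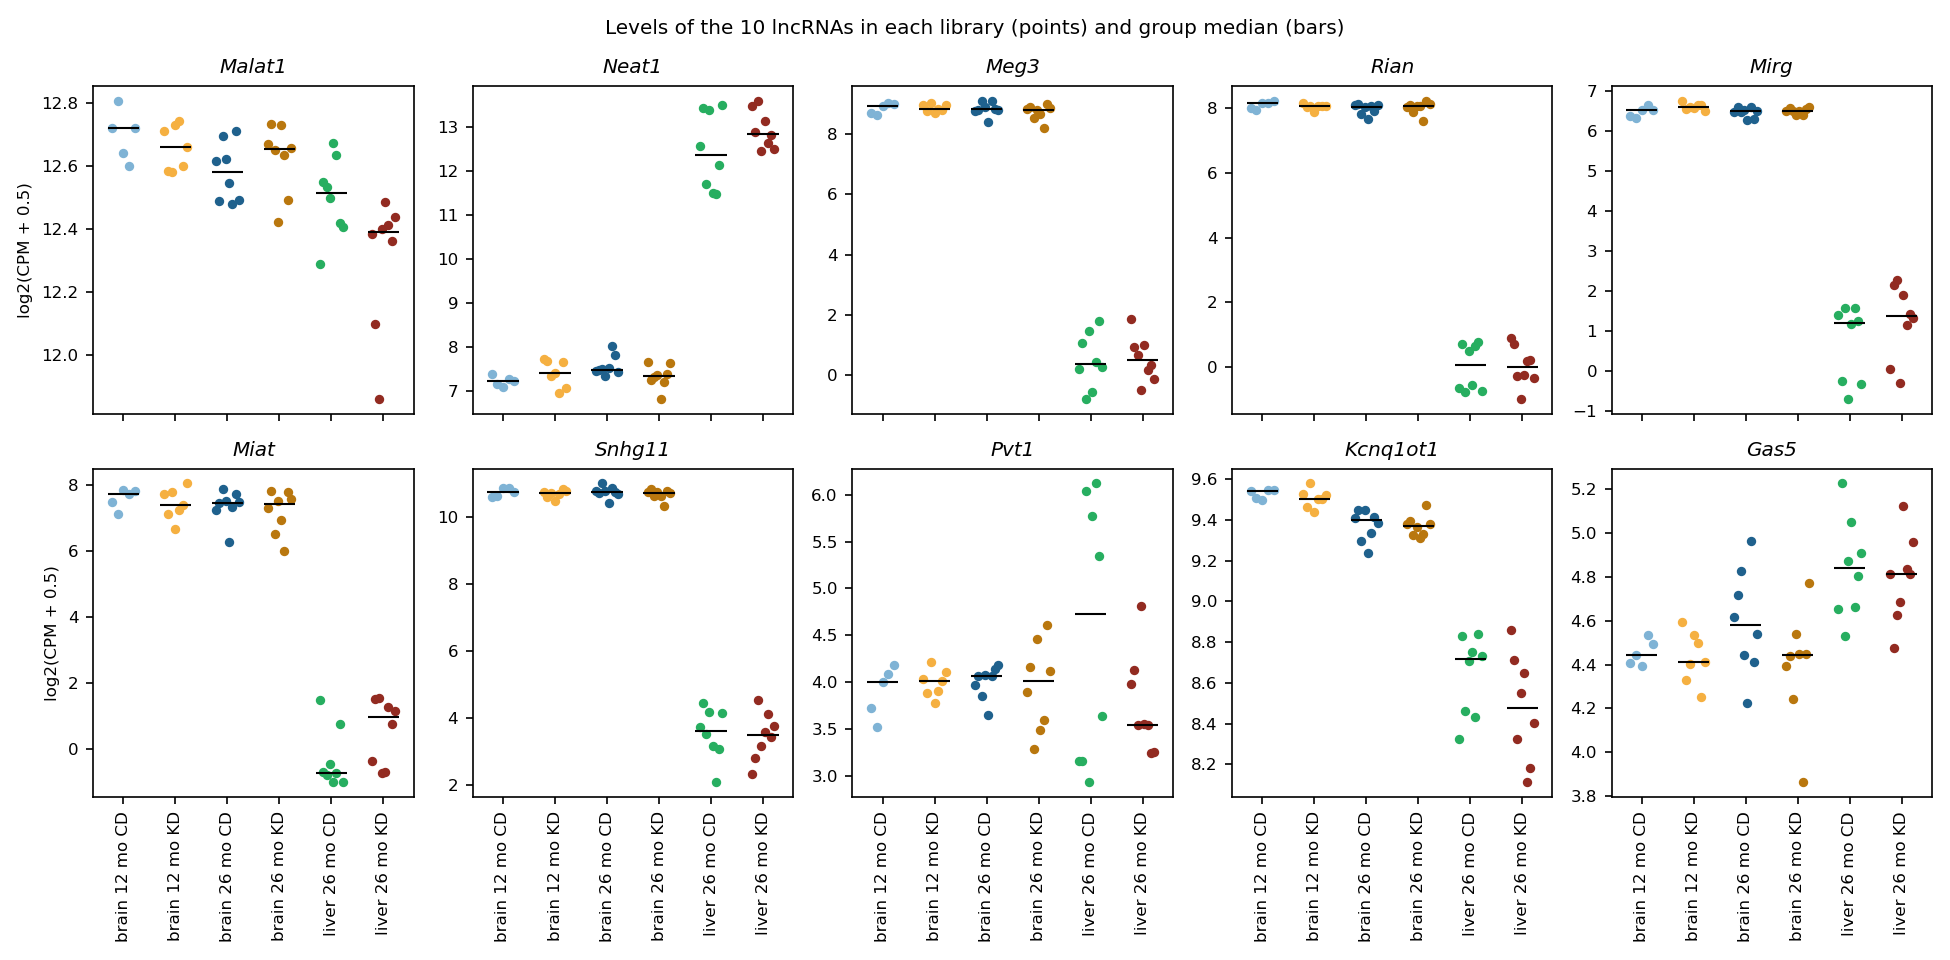
Levels of the 10 lncRNAs as log2(CPM + 0.5) on the vertical axis, with 1 point per library and a bar at the group median for the 6 groups on the horizontal axis; the vertical scales differ between panels. Neat1 is higher in every liver than in any brain, Meg3, Rian, Mirg, Miat and Snhg11 are lower in every liver than in any brain, and Pvt1 of the CD livers falls into 4 high and 4 low libraries.

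The levels on CD at 26 months were compared between liver and brain. Of the 10 genes, 8 passed the test (edgeR, quasi-likelihood F test, Benjamini-Hochberg adjusted p under 0.05), 2 higher and 6 lower in the liver. Among all 23556 genes tested 77.9% passed, so the count of 8 of 10 is near that of all genes. The median log2 fold change of the 10 was -3.38 against -0.17 over all genes. Without TMM, on total counts alone, the median of all genes moved by a further -0.18, so differences of that size depend on the scaling. Bulk RNA does not tell fewer cells of a type from less RNA per cell.

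The nuclear RNAs Malat1 and Neat1 differed in this respect. Malat1 in the CD groups was 5700 to 6702 CPM in the brain with a median of 6122, and 5003 to 6530 in the liver with a median of 5849. The ranges overlapped, and the log2 fold change was -0.15 with an SE of 0.09 (95% interval -0.33 to 0.03, adjusted p = 0.125). It passed the test as lower in the liver on total counts alone (-0.33, adjusted p = 0.00359), without the filter on low counts (-0.39, adjusted p = 0.00543) and with a stricter filter (-0.21, adjusted p = 0.0339). Neat1 was 161 to 261 CPM in the CD brains with a median of 179, and 2847 to 11591 in the CD livers with a median of 5295. No liver overlapped with a brain. Neat1 was 32.9-fold higher in the liver, with a log2 fold change of 5.04, an SE of 0.31 and an adjusted p of 2.08e-15. The deposited count is per gene, so the short and the long isoform of Neat1 are not told apart here.

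The RNAs of the Dlk1-Dio3 region were brain RNAs in these data. Meg3 was 337 to 549 CPM in the CD brains with a median of 454, and 0.0786 to 2.98 in the CD livers with a median of 0.793. Rian was 205 to 282 CPM in the CD brains with a median of 266, and 0.0786 to 1.19 in the CD livers with a median of 0.554. Mirg was 76.7 to 96.4 CPM in the CD brains with a median of 89.9, and 0.115 to 2.51 in the CD livers with a median of 1.82. Each of the 3 was lower in every liver than in any brain. The log2 fold changes were -8.68 for Meg3 (SE 0.47), -8.77 for Rian (SE 0.42) and -5.97 for Mirg (SE 0.42), with adjusted p-values from 7.53e-18 to 8.16e-14. Over all 28 brains and all 16 livers, both ages and diets included, the liver mean as a share of the brain mean was 0.257% for Meg3, 0.227% for Rian and 2.05% for Mirg. Counts behind the liver values were low, at 1 to 35 per library for Meg3, 0 to 15 for Rian and 1 to 40 for Mirg. The 1 liver without a Rian count (KD replicate 12) allows up to 3 counts, or 0.294 CPM. Among 8 protein genes of the region, 6 were tested, 5 lower and 1 higher in the liver. Begain was lower by a log2 fold change of -8.23, and Dlk1, the imprinted ligand that gives the region its name, by -5.02. Yy1, a transcription factor, was higher by 0.48.

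Miat and Snhg11 were also brain RNAs. Miat was 77.4 to 235 CPM in the CD brains with a median of 176, and 0 to 2.27 in the CD livers with a median of 0.105. Its log2 fold change was -8.55 with an SE of 0.64 (adjusted p = 3.31e-13). In 2 CD livers (replicates 5 and 8) no count of Miat was seen, which allows up to 0.272 and 0.244 CPM. Snhg11 was 1380 to 2070 CPM in the CD brains with a median of 1742, and 3.77 to 21.3 in the CD livers with a median of 11.8. Its log2 fold change was -7.19 with an SE of 0.34 (adjusted p = 5.29e-18). Neuron markers in the livers summed to 9.24 to 31.8 CPM, with up to 3 of the 5 at 0 counts in a library. Their part in the low liver values was not tested.

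Kcnq1ot1 was 602 to 699 CPM in the CD brains with a median of 674, and 320 to 457 in the CD livers with a median of 421. No liver overlapped with a brain, and the log2 fold change was -0.80 with an SE of 0.09 (adjusted p = 2.93e-09). It was lower in the liver under all alternatives, with values from -1.05 to -0.71. Kcnq1, the potassium channel gene it runs through, was higher in the liver by a log2 fold change of 1.37 (adjusted p = 9.08e-05). Cdkn1c, an inhibitor of the cell cycle from the same imprinted region, was lower by -1.27 (adjusted p = 0.000268). Of the other 9 tested genes of the region, Kcnq1 and Cdkn1c among them, 4 were higher and 3 lower.

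Pvt1 and Gas5 were low in both tissues. Pvt1 was 12.1 to 17.7 CPM in the CD brains with a median of 16.2. In the CD livers it was 7.15, 8.41, 8.44 and 12.0 CPM in replicates 4, 1, 2 and 8, and 40.1, 54.4, 65.3 and 69.1 in replicates 7, 5, 3 and 6. The first 4 livers lie below the CD brains and the others far above them. The log2 fold change was 1.003 with an SE of 0.38 (adjusted p = 0.0167), and it was lost without CD liver replicate 3 (0.79, adjusted p = 0.0555) or replicate 6 (0.77, adjusted p = 0.0605). It was also lost without the filter on low counts (0.86, adjusted p = 0.0817), with receptor genes as a covariate (0.75, adjusted p = 0.0695) and with the replicate number as a block (0.47, adjusted p = 0.325). Gas5 was 18.2 to 30.8 CPM in the CD brains with a median of 23.4, and 22.6 to 37.0 in the CD livers with a median of 28.1. The ranges overlapped, and the log2 fold change of 0.18 (SE 0.12, 95% interval -0.06 to 0.42) did not pass the test (adjusted p = 0.166). Gas5 passed as higher in the liver in the fit without KD liver replicate 12 (0.27, adjusted p = 0.04045). Myc, the neighbour of Pvt1, was higher in the liver by a log2 fold change of 2.53 (adjusted p = 2.03e-05).

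Lists of related genes were counted in the same comparison. Of 29 paraspeckle proteins 8 were higher and 13 lower in the liver, with a median log2 fold change of -0.17, that of all genes. Nono, a core paraspeckle protein, was higher by 0.56 and Pspc1, another, lower by -0.80. Of 28 nuclear speckle proteins 8 were higher and 8 lower, with a median of -0.03. Of 20 other imprinted genes 18 were lower and 2 higher, with a median of -2.15. Ndn, a growth suppressor of neurons, was lower by -6.53 and Ube3a, a ubiquitin ligase, by -1.94. Of 22 tested other lncRNAs 6 were higher and 13 lower, and of 18 tested other snoRNA host genes 7 were higher and 5 lower. Snhg14, the host of the Prader-Willi snoRNAs, was lower by -5.97. Of 15 factors of nonsense-mediated decay 5 were higher and 6 lower.

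In the brain, KD was compared with CD after one week at 12 months. None of the 10 genes passed the test, and among all 22079 genes 0.00453% passed, 1 gene. The median log2 fold change of the 10 was -0.02, and that of all genes 0.00. Mirg had the smallest unadjusted p. It was 80.4 to 99.7 CPM on CD with a median of 92.0, and 90.6 to 108 on KD with a median of 97.4, which overlapped. Its log2 fold change was 0.13 with an SE of 0.06 (95% interval 0.01 to 0.25, adjusted p = 1). Neat1 was 135, 142, 148, 154 and 167 CPM in the 5 CD brains and 124 to 211 on KD with a median of 170. The KD brains reached below and above the CD brains, and the log2 fold change was 0.21 (95% interval -0.08 to 0.49). The 95% intervals were narrow for the genes with high counts, from -0.10 to 0.05 for Kcnq1ot1, from -0.17 to 0.09 for Malat1 and from -0.20 to 0.10 for Snhg11. They were wide for Miat, from -0.66 to 0.37. An unadjusted p under 0.05 was reached by 584 genes.

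After one year of cyclic KD none of the 10 genes passed the test in the brain, and 0% of all 22079 genes did (1000 genes had an unadjusted p under 0.05). The median log2 fold change of the 10 was -0.04, and that of all genes 0.00. Gas5 was 18.2 to 30.8 CPM on CD with a median of 23.4 and 14.1 to 26.8 on KD with a median of 21.3. Its log2 fold change was -0.20 with an SE of 0.09 (95% interval -0.39 to -0.01, adjusted p = 0.989). Neat1 was 161 to 261 CPM on CD with a median of 179 and 112 to 203 on KD with a median of 162. The groups overlapped, and the log2 fold change was -0.23 with an SE of 0.12 (95% interval -0.48 to 0.01, adjusted p = 0.989). Kcnq1ot1 had a log2 fold change of 0.00 (95% interval -0.07 to 0.06), the narrowest of the set. Meg3 (-0.11), Rian (0.03) and Mirg (0.04) had intervals within -0.28 and 0.17.

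The one-year and the one-week effects of KD in the brain were set against each other in 1 test. None of the 10 genes passed, and 0% of all 22079 genes did (998 genes had an unadjusted p under 0.05). Neat1 differed the most, with a log2 difference of -0.44 and an SE of 0.18 (95% interval -0.81 to -0.07, adjusted p = 1). Its diet effect was 0.21 after one week and -0.23 after one year. Medians of marker lists went both ways. The 12 tested hindbrain genes had a median log2 fold change of 1.69 after one week (12 above 0). It was -1.13 after one year (1 above 0), with a difference of -2.85 (0 above 0). The 4 oligodendrocyte markers had a median difference of -0.31 (0 above 0), and astrocyte markers -0.22. The 1 tested neutrophil marker had -0.88. Medians of neuron, microglia and hepatocyte markers had signs opposite to Neat1 in both diet effects, with median differences of 0.25, 0.06 and 0.35. The microglia medians were small, at -0.02 after one week (2 of 4 markers above 0) and 0.03 after one year (4 of 4). Of the 5 hepatocyte markers 3 were tested. None of these markers passed the test, and their part in the Neat1 values was not tested. The median difference of the 10 was -0.05, against 0.00 over all genes.

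**Figure D2:**
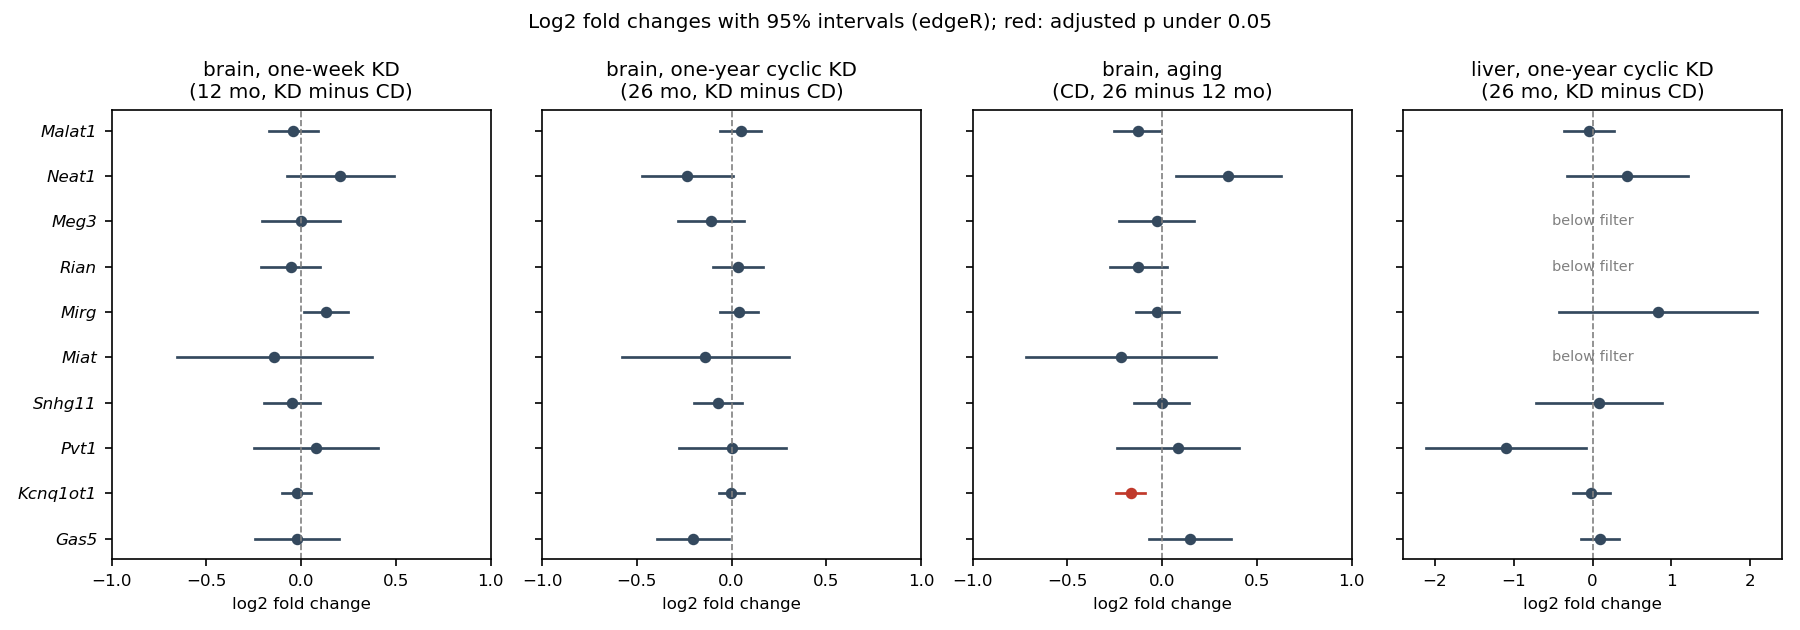
Log2 fold changes (horizontal axis, points) with 95% intervals (lines) of the 10 lncRNAs in the brain after one week of KD, after one year of cyclic KD and with age on CD, and in the liver after one year of cyclic KD, whose axis is wider; red marks an adjusted p under 0.05. Kcnq1ot1 with age (-0.17) is the only red point, and Meg3, Rian and Miat had too few counts in the liver to be tested.

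Aging was tested in the brain on CD, 26 against 12 months. Of the 10 genes 1 passed the test, Kcnq1ot1, which was lower at 26 months. Among all 22079 genes 1.26% passed, 221 higher and 57 lower, so the count of 1 of 10 rests on a single gene. The median log2 fold change of the 10 was -0.03, and that of all genes 0.00. In the 5 brains at 12 months Kcnq1ot1 was 721, 727, 745, 747 and 748 CPM, and in the 8 at 26 months it was 602 to 699 with a median of 674. The groups did not overlap. The mean fell from 738 ± 12.5 (SD, n = 5) to 663 ± 34.4 (SD, n = 8), and the log2 fold change was -0.17 with an SE of 0.04 (0.891-fold, 95% interval 0.846 to 0.939, adjusted p = 0.0174). The adjusted p was 0.0711 without 12-month CD replicate 1, 0.0763 without replicate 4, 0.0747 on total counts alone and 0.108 with the signal of receptor genes as a covariate, with log2 fold changes from -0.15 to -0.14. It was 0.055 without the filter on low counts and 0.146 in a fit of the 2 groups alone. Without the brains above 0.5% Gm10800 it was -0.15 (adjusted p = 0.0479). On KD the levels were 694 to 764 CPM at 12 months with a median of 725. At 26 months on KD they were 634 to 709 with a median of 661, and these overlapped. Scaled over the brains alone, the KD levels were 755 to 799 CPM at 12 months and 679 to 730 at 26 months, without overlap. The CD levels on that scale were 766 to 802 and 647 to 744 CPM, also without overlap. The overlap on KD thus depends on the scaling, and the change with age on KD was not tested. None of the 8 tested genes of the Kcnq1 region passed, and their median log2 fold change was 0.16.

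The other 9 genes did not pass in aging. Neat1 was 135 to 167 CPM at 12 months and 161 to 261 at 26 months, with a log2 fold change of 0.35 and an SE of 0.14 (95% interval 0.07 to 0.63, adjusted p = 0.256). Malat1 was 6207 to 7158 CPM at 12 months with a median of 6747 and 5700 to 6702 at 26 months with a median of 6122. Its log2 fold change was -0.13 with an SE of 0.06 (adjusted p = 0.401). Meg3, Mirg and Snhg11 had log2 fold changes between -0.03 and 0.00, with intervals within -0.23 and 0.17. Gas5 was at 0.15 (SE 0.11), while Zfas1, another snoRNA host gene, was higher at 26 months by 0.48 (adjusted p = 0.0364), 1 of 18 tested other snoRNA host genes and the only one to pass. None of 19 other lncRNAs, 29 paraspeckle proteins or 20 other imprinted genes passed. Among the marker lists the astrocyte gene Gfap was higher (0.88, adjusted p = 0.0321), the hindbrain gene Tph2 higher (3.39, adjusted p = 0.0486) and the hepatocyte gene Alb lower (-3.71, adjusted p = 0.0196). The 4 oligodendrocyte markers had a median log2 fold change of 0.45, and none of them passed.

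**Figure D3:**
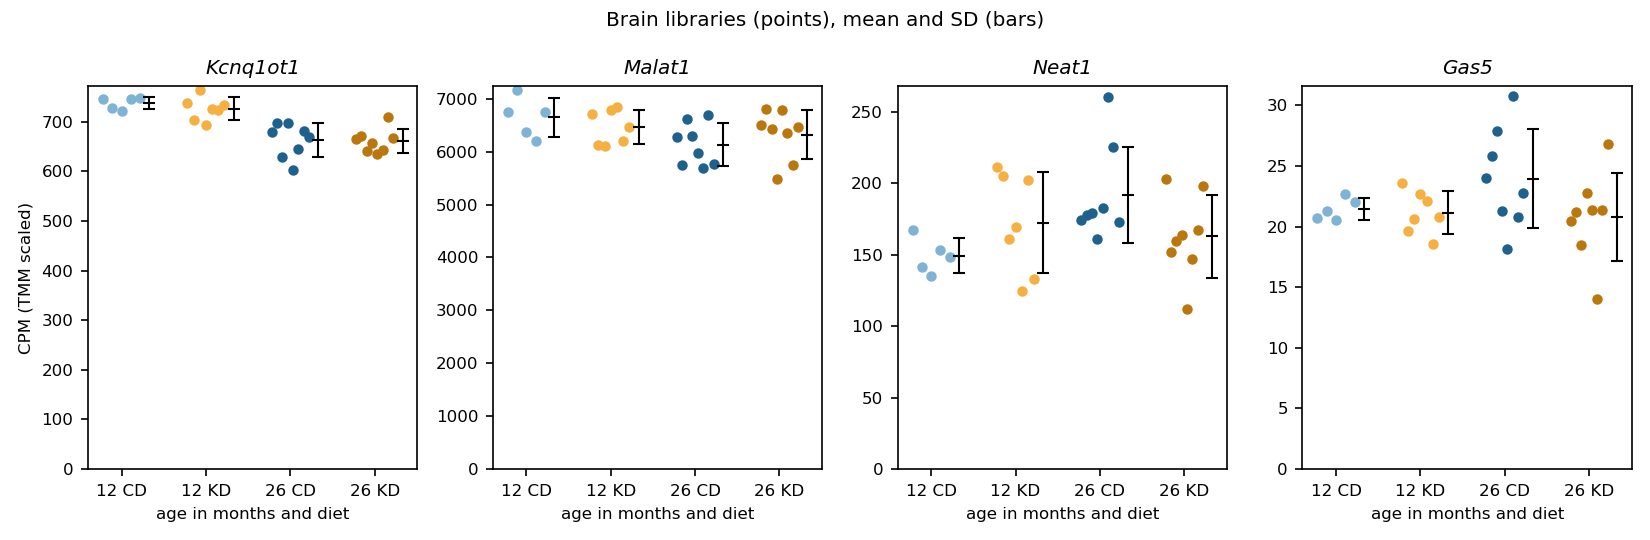
CPM of Kcnq1ot1, Malat1, Neat1 and Gas5 (vertical axes from 0) in the brain by age in months and diet (horizontal axis); points are libraries, and the bars beside them are the mean and SD. Kcnq1ot1 at 12 months on CD (721 to 748) lies above all brains at 26 months on CD (602 to 699), while the groups of Malat1, Neat1 and Gas5 overlap.

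In the liver the one-year cyclic KD was compared with CD. Meg3, Rian and Miat did not pass the filter on low counts, and none of the other 7 genes passed the test. Among all 18002 genes tested 0% passed, while 2792 had an unadjusted p under 0.05 and DESeq2 called 177 genes, none of them a member. The median log2 fold change of the 7 was 0.08, and that of all genes 0.04. Scaled over the 16 livers alone, as in this test, Malat1 was 5010 ± 287 CPM on CD and 4853 ± 572 on KD (SD, n = 8 each), with a log2 fold change of -0.05 (95% interval -0.37 to 0.27). On the scale of all 44 libraries the same means were 5809 and 5100, so the size of this difference depends on the scaling. Kcnq1ot1 was 345 ± 41.03 CPM on CD and 342 ± 49.3 on KD, with a log2 fold change of -0.01 (95% interval -0.25 to 0.22). Gas5 was 24.6 ± 3.995 CPM on CD and 26.2 ± 3.62 on KD, with a log2 fold change of 0.09 (95% interval -0.15 to 0.33). Mirg, at 1 to 32 counts on CD and 3 to 40 on KD, had a log2 fold change of 0.83 with an SE of 0.59 (adjusted p = 0.496).

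Pvt1 and Neat1 fell into separate ranges among the CD livers. Over the 8 CD livers the highest level of Pvt1 was 9.66 times the lowest, that of Neat1 4.07 times and that of Snhg11 5.67 times. Wider ranges were seen for Meg3 (37.97 times, 1 to 35 counts), Mirg (21.79, 1 to 32 counts) and Rian (15.19, 1 to 14 counts). Mirg had 19 to 32 counts in the 4 CD livers with the lowest share of mitochondrial counts and 1 to 16 in the remaining 4. What widened these ranges was not tested. Pvt1 had a log2 fold change of -1.09 on KD, with an SE of 0.48 (adjusted p = 0.308). Pvt1 was at 40.1 to 69.1 CPM in the 4 CD livers with the lowest share of mitochondrial counts, at 7.15 to 12.0 in the remaining 4 and at 8.98 to 27.6 in the 8 KD livers. Without these 4 livers the log2 fold change of Pvt1 was 0.70 (SE 0.28, adjusted p = 0.302), the opposite direction. Neat1 had a log2 fold change of 0.44 on KD with an SE of 0.36 (adjusted p = 0.558). It was 2847 to 4500 CPM in the 4 CD livers, 6090 to 11591 in the other 4 and 5622 to 12312 in the 8 KD livers. Without the 4 livers its log2 fold change was -0.17 (SE 0.24, adjusted p = 0.697). The 4 livers lay apart from the other 12 in both genes, also on total counts alone and on the scale of the 16 livers. These classes were set by the share of mitochondrial counts and are not groups of the study.

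Markers of immune cells moved with these 4 livers. The summed level of 4 Kupffer cell markers was 2279 to 3419 CPM in them, 135 to 851 in the remaining 4 CD livers and 109 to 1567 in the KD livers. That of 5 neutrophil markers was 61.6 to 1329 CPM in the 4 livers and at most 18.7 in the other 12. Hepatocyte markers summed to 11658 to 18557 CPM in the 4 livers, 29233 to 34247 in the other 4 and 19961 to 30823 in the KD livers. The KD liver with the highest Kupffer cell markers, 1567 CPM, was also the one with the highest Pvt1, 27.6 CPM (replicate 12). The part of these cells in the Pvt1 and Neat1 values was not tested.

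**Figure D4:**
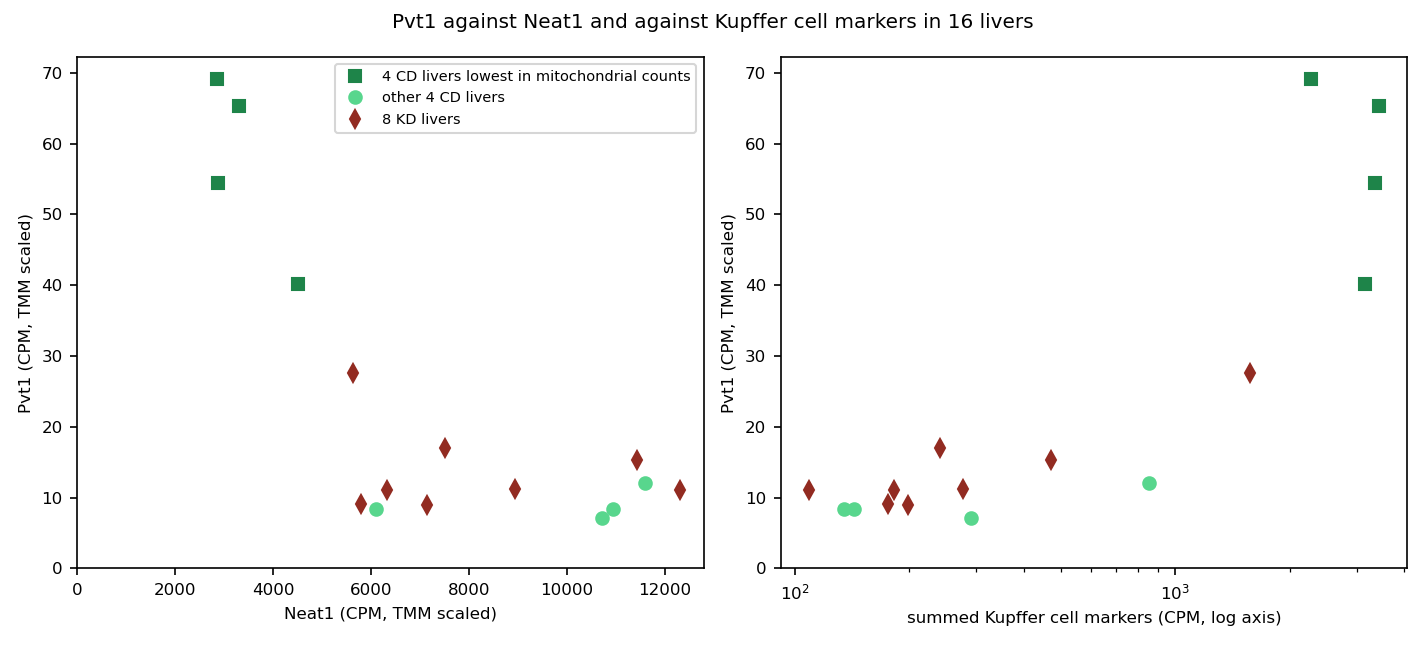
Pvt1 in CPM (vertical axes) in the 16 livers against Neat1 in CPM (left) and against the summed level of 4 Kupffer cell markers in CPM on a log axis (right), with 1 point per library. The 4 CD livers lowest in mitochondrial counts (squares, Pvt1 40.1 to 69.1) lie apart from the remaining 4 CD livers (circles, 7.15 to 12.0) and the 8 KD livers (diamonds, 8.98 to 27.6) on both axes.

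The share of Gm10800 also went with some liver values. In the 6 livers high in Gm10800 Miat was 1.17 to 2.3999 CPM (9 to 23 counts), and in the other 10 it was 0 to 1.19 (0 to 14 counts). These 6 livers differed over the whole library. They had 42868 to 47702 genes with a count, against 25030 to 28259 in the 10. Receptor genes of smell and taste summed to 1292 to 2757 CPM of total counts in the 6 and 140 to 247 in the 10. Malat1 was 3711 to 5548 CPM in the 6 livers and 5337 to 6530 in the 10, and Kcnq1ot1 was 277 to 418 against 345 to 464. On the scale of the 16 livers Malat1 was 3901 to 5543 CPM in the 6 livers and 4598 to 5463 in the 10, and Kcnq1ot1 279 to 410 against 286 to 406, so for these genes the difference depends on the scaling. Miat on that scale was 1.13 to 2.52 CPM against 0 to 1.03. As 5 of the 6 livers were on KD, the diet and this signal are partly the same contrast, and its part in the values was not tested.

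The effect of the one-year KD was compared between liver and brain. None of the 10 genes passed the test, and 0.119% of all 23556 genes did. The largest differences were those of Miat (log2 difference 1.61, SE 0.79, adjusted p = 0.23) and Pvt1 (-1.17, SE 0.53, adjusted p = 0.198). Without CD liver replicate 1, which is high in Gm10800, Miat passed (2.44, adjusted p = 0.0224), among 5083 genes that did. All remaining livers high in Gm10800 were then on KD. With limma and sample quality weights Neat1 (0.92, adjusted p = 0.0246) and Pvt1 (-1.45, adjusted p = 0.0128) passed, among 7471 genes that did. Calls under these 2 settings are thus nothing particular to the members. The median difference of the 10 was 0.15, and that of all genes 0.08.

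It was next asked whether the 10 genes go together from mouse to mouse. Correlations were computed for the 45 pairs in each tissue on log2 CPM after the group means had been subtracted, with p-values from 100000 permutations within groups, adjusted over the 90 pairs. Over the 28 brains 21 pairs passed at an adjusted p under 0.05, all positive. The share of other gene pairs that would pass was not computed, and genes outside the set reached r of 0.972 with Miat, so the count shows nothing particular to the lncRNAs. The scaling mattered: on total counts alone 10 pairs passed, on the scale of the brains alone 11 pairs, and 6 pairs under all 3 scalings, all positive. These 6 were Meg3 with Miat, Snhg11 and Gas5, Miat with Snhg11 and Pvt1, and Rian with Pvt1. The brains highest in Gm10800 were CD replicate 5 (1.22%) and KD replicate 14 (0.991%) at 26 months. They were also the lowest of the 28 in Meg3 (337 and 292 CPM), Rian (205 and 196), Miat (77.4 and 63.2) and Snhg11 (1380 and 1290). The part of this signal in the correlations was not tested. Meg3 and Miat had a Pearson r of 0.90 and a Spearman rho of 0.85 (permutation adjusted p = 0.00022 and 0.00045), with r = 0.81 without the 2 libraries farthest from the median. Meg3 and Snhg11 had r = 0.90 and rho = 0.80 (permutation adjusted p = 0.00022 and 0.0006), with r = 0.80 without the 2 farthest libraries. Without the 2 farthest libraries r went from 0.74 to 0.50 for Meg3 with Gas5 and from 0.85 to 0.72 for Miat with Snhg11. It went from 0.76 to 0.75 for Miat with Pvt1 and from 0.69 to 0.68 for Rian with Pvt1.

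The 3 RNAs of the Dlk1-Dio3 region went together less closely than Meg3 did with Miat. Meg3 and Rian had r = 0.76 and rho = 0.56 (permutation adjusted p = 0.00172 and 0.0235), and r = 0.50 without the 2 farthest libraries or on total counts alone. Rian and Mirg had r = 0.69 and rho = 0.71 (permutation adjusted p = 0.0016 and 0.00141), and r = 0.48 on total counts alone. Meg3 and Mirg had r = 0.60 and rho = 0.56 (permutation adjusted p = 0.00534 and 0.0221), and r = 0.15 on total counts alone. Whether these correlations differ from each other was not tested. Some pairs of Kcnq1ot1 changed their sign with the scaling, as with Miat (r = 0.62 after TMM and r = -0.50 on total counts alone). Those with Rian, Mirg and Pvt1 stayed positive, at r = 0.68, 0.40 and 0.66 after TMM and 0.18, 0.36 and 0.03 on total counts alone. Negative pairs passed in the brain only without the scaling over all 44 libraries, and all were pairs of Malat1: with Pvt1, Meg3, Miat and Rian on total counts alone and with Pvt1 on the scale of the brains alone. Malat1 and Pvt1 had r = -0.81 on total counts alone (permutation adjusted p = 0.00045) and r = -0.51 after TMM over all libraries (permutation adjusted p = 0.059).

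**Figure D5:**
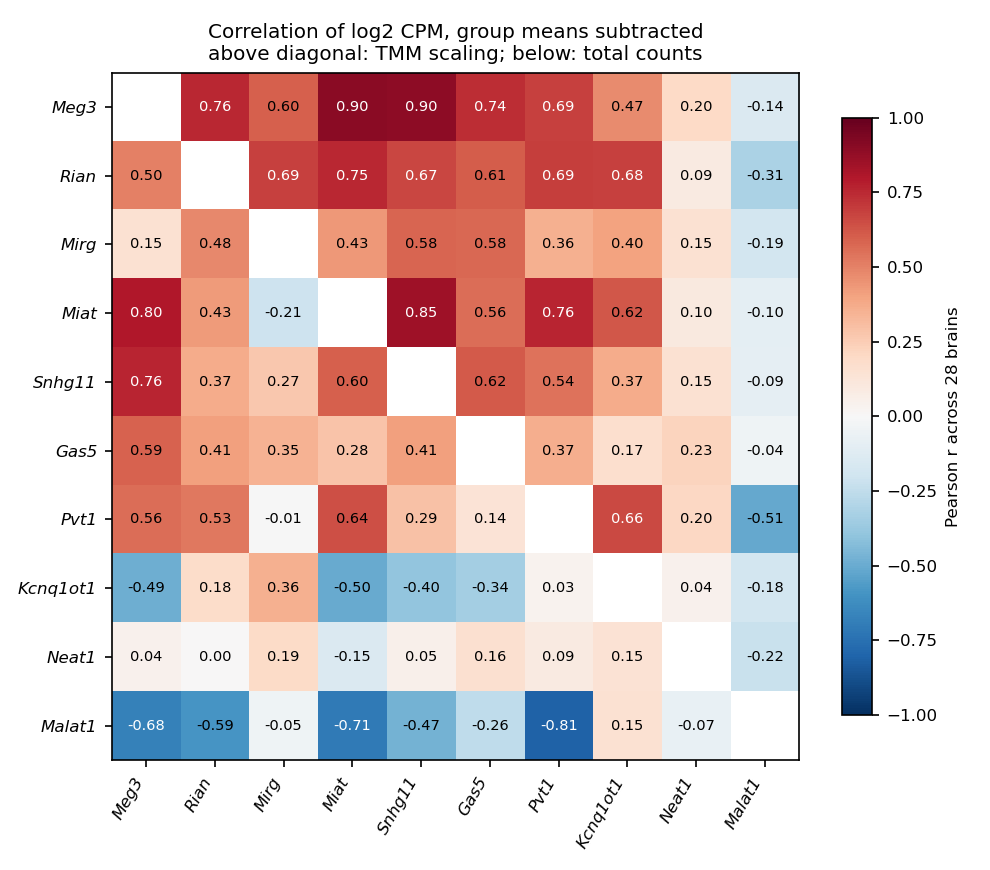
Pearson r of log2 CPM between the 10 lncRNAs across 28 brains, with group means subtracted, as a grid of genes against genes; the colour runs from -1 (blue) to 1 (red), TMM scaling stands above the diagonal and total counts alone below it. Meg3, Miat and Snhg11 keep r between 0.60 and 0.90 on both sides, while the pairs of Kcnq1ot1 with Meg3, Miat and Snhg11 are positive above the diagonal and negative below it.

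Cell type markers moved with some of these genes in the brain. Of 50 relations of the 10 genes with the summed markers of 5 kinds of cells or regions, 21 passed at an adjusted p under 0.05 over the 28 brains. The share of other genes that would pass was not computed, so the count shows nothing particular to the lncRNAs. The scaling mattered here too. With the lncRNAs on total counts alone, r of Kcnq1ot1 with microglia markers went from 0.51 to -0.63. That of Snhg11 with neuron markers went from 0.63 to 0.27, while that of Miat with microglia markers was 0.80. Miat had r = 0.76 and rho = 0.74 with neuron markers (permutation adjusted p = 0.000167 and 0.000875), r = -0.72 with astrocyte markers and r = -0.47 with hindbrain markers. Its largest r was with microglia markers, at 0.82 with rho = 0.78 (permutation adjusted p = 0.00025 and 0.0005), and 0.73 without the 2 farthest libraries. Meg3 also had its largest r with microglia markers, at 0.81 with rho = 0.73 (permutation adjusted p = 0.000167 and 0.000667), and 0.72 without the 2 farthest libraries. It had r = 0.60 with neuron markers and r = -0.65 with astrocyte markers. Without the 2 farthest libraries r of Miat with neuron markers was 0.65 and that of Meg3 was 0.39. Neat1 had r = 0.71 and rho = 0.71 with oligodendrocyte markers (permutation adjusted p = 0.0009 and 0.0012), which was 0.68 without the 2 farthest libraries. Malat1 had r = -0.55 with oligodendrocyte markers. The part of these cells in the correlations among the lncRNAs was not tested.

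In the liver 4 pairs passed over the 16 livers, 5 on total counts alone and 3 on the scale of the livers alone, and 2 pairs passed under all 3 scalings, Meg3 with Rian and Snhg11 with Pvt1. The libraries fall into the classes given above, so values within the other 12 livers are given beside them. Meg3 and Rian had r = 0.81 and rho = 0.84 (permutation adjusted p = 0.00284 and 0.0019), and r = 0.81 in the 12 livers, with 0 to 35 counts per library behind them. Neat1 and Pvt1 had r = -0.80 over the 16 livers and r = -0.07 in the 12, so that relation rests on the 4 CD livers, and on total counts alone it did not pass (r = -0.72, permutation adjusted p = 0.0704). Snhg11 and Pvt1 had r = -0.69 over the 16 livers and r = -0.47 in the 12. Malat1 and Miat had r = -0.64 over the 16 livers and r = -0.61 in the 12, and r = -0.27 on total counts alone and -0.19 on the scale of the livers. Malat1 and Neat1 passed on total counts alone (r = -0.86, permutation adjusted p = 0.0027) and had r = -0.42 after TMM over all libraries.

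The genes most like a member were taken by the highest Pearson r on the same values, as a description across libraries that share depth and scaling. Over the 28 brains they were Jag2, Agrn and Grid1 for Meg3 (r from 0.956 to 0.962), and Fam217b, Chd5 and Lrfn5 for Miat (0.962 to 0.972). For Neat1 they were Csf1, Hapln2 and B3galt5 (0.789 to 0.807). Csf1 encodes a growth factor of macrophages and microglia, and Hapln2 a link protein of the nodes of Ranvier. For Kcnq1ot1 they were Fam193b, Prr14l and Abcc5 (0.803 to 0.865), and for Gas5 Usp5, Rpl17 and Pja1 (0.846 to 0.856), of which Rpl17 is a ribosomal protein gene. Over the 12 livers they included Havcr2 (0.9751) and Cd33 (0.958) for Pvt1, which encode receptors of immune cells. Those of Neat1 over the 12 livers were Slc6a13, Fbxw9 and Abcb4 (0.938 to 0.962), of which Abcb4 encodes the phospholipid pump of the bile canaliculus.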

How the data were processed

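RNA of 28 brains and 16 livers, depleted of ribosomal RNA, was sequenced. Per the labels, the authors used Trimmomatic for trimming, STAR for alignment and RSEM for counting on GRCm38 (versions and strand setting not given in the sources used here). The deposited table holds raw counts per gene, as whole numbers, for 54446 identifiers, of which 54409 were given a symbol from GENCODE annotation. All 44 columns were mapped by their names, and no 2 libraries were identical. Groups follow the labels, and it is not stated there whether a brain and a liver of equal number came from 1 mouse.

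Counts were filtered with filterByExpr, scaled by TMM and tested with the quasi-likelihood F test of edgeR 4.0.16 in R 4.3.3, with Benjamini-Hochberg adjustment over all genes tested and a threshold of 0.05. The 16 livers, the 28 brains and the 32 libraries at 26 months were each fitted together. The study compared diets with DESeq2, which was run as an alternative (version 1.42.0), as was limma 3.58.1 with sample quality weights. The tests were checked on simulated counts. For the liver diet comparison 42 of 97 genes changed by a log2 fold of 1 and 5 of 98 changed by 0.5 were recovered among 17507 genes, so depth and spread limit what the liver could show. For brain aging 68 of 97 and 29 of 98 were recovered, and 10 unchanged genes were called. For the brain after one week of KD 65 of 98 and 26 of 99 were recovered, with 3 such calls. After one year these were 76 of 96 and 38 of 99, with 9 such calls. The liver diet comparison had 0 such calls. Correlations used 100000 permutations within groups, and the smallest p they can give is 1e-05.

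The 10 lncRNAs and the gene lists were chosen with earlier results of these data known. All 10 were named, with listed genes that passed the test or had the 3 smallest p-values, and for likeness the 3 genes of highest r, of which 1 is not reported here. Likeness in the 12 livers, and correlations on the scale of 1 tissue, were added after seeing the data. Promoter and microRNA sequences are those of RefSeq (GRCm38.p6). Total counts were 6879726 to 12744415 per library, and floors for a count of 0 (3 counts) cover counting error only.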

Additional observations from a re-analysis of the deposited data

Results flagged for a closer look

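In 60 groups of 5 to 8 libraries, 1 per gene and group, the highest and lowest library were compared with the others by Dixon's criterion, which chance meets in about 1 of 20 groups, and 3 stood apart. Meg3 in liver KD replicate 9 was the highest of its group at 3.18 CPM, with the next at 1.502. Snhg11 in brain KD replicate 14 at 26 months was the lowest of its group at 1290 CPM, with the next at 1583. This brain also held the highest Gm10800 share of its group (0.991%). Pvt1 in liver KD replicate 12 was the highest of its group at 27.6 CPM, with the next at 16.96, and this library also held the highest Kupffer cell markers of the KD livers (1567 CPM).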

How the results depend on the processing

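No member that passed the test changed its direction under any alternative. In aging, the members called fell from 1 to 0 on total counts alone, without the filter, with receptor genes as a covariate, in the 2 groups alone and with the replicate block (0 to 1 with a library left out). Genes called in aging were 278, and 174 with at least 10 counts in every library, 499 by DESeq2, 178 with the receptor covariate, 121 in the 2 groups alone, 20 with the replicate block and 147 to 319 with a library left out. After one week of KD the 1 gene called fell to 0 on total counts alone, without the filter, with the hindbrain covariate and without libraries high in Gm10800 (0 to 1 with a library left out). In the liver diet comparison 0 genes became 177 by DESeq2 and 0 to 117 with a library left out, 117 without CD replicate 1. The difference between the one-year and one-week effects gave 2 genes by DESeq2 and 0 to 1 with a library left out. Between tissues 18348 genes became 9671 under the stricter filter (18215 to 19069 with a library left out) and 8 members became 5, with 7 to 9 when a library was left out. In the difference of diet effects between tissues, 28 genes became 6 with RLE or robust dispersion, 0 on total counts alone, without the filter, under the stricter filter, with the receptor covariate or with the block, 1381 by DESeq2, 7471 by limma and 0 to 5083 with a library left out (5083 without liver CD replicate 1). Members went from 0 to 2 by limma and 0 to 1 with a library left out. The cause of these changes was not tested, other than the smaller number of genes under the stricter filter.

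Whether equal replicate numbers mark pairs is not settled by the labels or the data, and they were not used to pair samples in the values reported: deviations of brain and liver correlated between -0.0651 and 0.119 over 8 CD pairs (2 over 0.1, and 3 of 8 numbers were best matches), and 12 and 26 months between -0.291 and 0.186 over 3. With the replicate block Kcnq1ot1 in aging was -0.15 (adjusted p = 0.83), Pvt1 between tissues 0.47 (adjusted p = 0.325), and 7 members were called between tissues among 18154 genes. Of the 60 mean levels 8 moved by over 1 SD with CPM from total counts. Low counts limit Meg3, Rian, Mirg and Miat in the liver.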
